A study of Homo sapiens with 8 samples.

Results

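The 30 genes described here belong to cholesterol synthesis and its control, sterol transport or fatty acid synthesis. Their RNA was examined in G401 cells before and after re-expression of SMARCB1. These genes were taken as a list by name, with no threshold on a measured value, and are 30 of 69168 genes counted in each library. They comprise 5 regulators of the SREBP pathway (SREBF1, SREBF2, SCAP, INSIG1 and INSIG2), 18 genes of sterol synthesis, 4 genes of sterol transport, uptake control and efflux (STARD4, MYLIP, ABCA1 and ABCG1) and 3 genes of fatty acid synthesis (FASN, SCD and ACACA). All 30 were found in the files, and 28 passed the filter on low counts and were tested. ABCA1 and ABCG1 did not pass.

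G401 is a cell line of kidney rhabdoid tumor origin, and its cells are without SMARCB1, which belongs to the core of SWI/SNF chromatin remodellers. The cells carried a Tet-On transgene, turned on by doxycycline (Dox), and received 0.1 µg/ml Dox or the solvent DMSO for 12 h, and RNA was sequenced. The transgene was SMARCB1 in one line and GFP, the control, in the other. This gave 4 groups of 2 libraries, SMARCB1 DMSO, SMARCB1 Dox, GFP DMSO and GFP Dox, so the cells of both lines had no SMARCB1 of their own and both lines received each agent. The study's methods describe 6 plates pooled per condition and experiments in duplicate. Nothing in the sources used here says whether the duplicates came from separate cultures, so p-values measure the spread between these libraries, which may be technical.

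Cells sense cholesterol in the membrane of the endoplasmic reticulum. When sterol is low, SCAP escorts the SREBP transcription factors, encoded by SREBF1 and SREBF2, to the Golgi, where they are cut and released to the nucleus; when sterol is high, the INSIG proteins hold SCAP back. SREBP2 acts mainly on genes of cholesterol synthesis and SREBP1 mainly on genes of fatty acid synthesis, at short DNA elements that often lie near CCAAT and GC boxes. The LXR receptors answer high sterol instead, and their targets include the efflux pumps ABCA1 and ABCG1 and the ubiquitin ligase MYLIP, which removes lipoprotein receptors.

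The proximal promoters of 6 of these genes are shown because their RNA levels carry the comparisons that follow or because their product drives the pathway. The windows hold the 250 bases before the RefSeq start of each gene (GRCh38.p14, 5′ to 3′ on the strand of the gene). For IDI1, which has 3 starts, the window shown is that of the start furthest downstream. Capitals mark CACNCCAC, a short form of the sterol regulatory element, and ATTGG, an inverted CCAAT box, each on either strand.
SREBF2 (chr22:41832855-41833104, plus strand): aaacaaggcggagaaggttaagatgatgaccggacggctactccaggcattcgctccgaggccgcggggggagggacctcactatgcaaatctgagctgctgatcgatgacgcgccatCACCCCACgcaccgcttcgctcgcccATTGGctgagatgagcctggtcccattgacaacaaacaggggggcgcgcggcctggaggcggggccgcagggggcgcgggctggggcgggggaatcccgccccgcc
INSIG1 (chr7:155297628-155297877, plus strand): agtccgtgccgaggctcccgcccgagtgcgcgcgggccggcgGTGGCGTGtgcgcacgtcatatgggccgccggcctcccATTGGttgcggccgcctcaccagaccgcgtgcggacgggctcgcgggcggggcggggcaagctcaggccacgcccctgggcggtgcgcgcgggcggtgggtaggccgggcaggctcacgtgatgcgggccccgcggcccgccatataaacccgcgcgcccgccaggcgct
IDI1 (chr10:1048887-1049136, minus strand): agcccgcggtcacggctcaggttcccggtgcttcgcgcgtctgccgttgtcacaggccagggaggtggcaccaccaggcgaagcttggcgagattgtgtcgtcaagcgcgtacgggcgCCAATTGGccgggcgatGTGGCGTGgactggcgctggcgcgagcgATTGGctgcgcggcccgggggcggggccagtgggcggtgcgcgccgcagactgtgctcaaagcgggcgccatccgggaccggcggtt
MSMO1 (chr4:165327419-165327668, plus strand): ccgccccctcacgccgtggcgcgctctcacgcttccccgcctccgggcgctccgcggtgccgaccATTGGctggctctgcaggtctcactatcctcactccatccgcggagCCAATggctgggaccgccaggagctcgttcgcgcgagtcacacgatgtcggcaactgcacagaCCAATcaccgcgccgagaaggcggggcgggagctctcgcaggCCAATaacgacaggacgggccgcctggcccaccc
SCD (chr10:100346983-100347232, plus strand): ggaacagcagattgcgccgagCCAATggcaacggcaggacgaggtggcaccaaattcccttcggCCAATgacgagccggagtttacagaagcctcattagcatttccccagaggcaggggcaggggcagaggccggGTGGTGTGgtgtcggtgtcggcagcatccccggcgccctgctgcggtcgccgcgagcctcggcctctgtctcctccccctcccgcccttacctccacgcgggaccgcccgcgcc
STARD4 (chr5:111512536-111512785, minus strand): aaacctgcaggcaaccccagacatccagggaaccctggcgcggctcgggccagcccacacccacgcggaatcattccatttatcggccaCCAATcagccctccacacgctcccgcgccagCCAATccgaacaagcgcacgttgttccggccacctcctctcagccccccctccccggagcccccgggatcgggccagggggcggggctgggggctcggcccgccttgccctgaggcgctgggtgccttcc

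In these windows, SREBF2, INSIG1, IDI1 and SCD each held the letters CACNCCAC once, and MSMO1 and STARD4 did not. The windows of DHCR7 and HMGCS1, which are not shown, held no CACNCCAC either. The IDI1 windows not shown, at starts 2 and 3 further upstream, held no CACNCCAC, and that at start 3 held no ATTGG. MSMO1 had ATTGG or its reverse complement at 4 places and STARD4 at 2. In IDI1, the matches to ATTGG at 132 and 129 bases before the start lie on opposite strands and overlap. RefSeq promoters were matched for 25 of the 30 genes, with 33 windows in all; ACAT2, FDFT1, SQLE, ABCG1 and FASN had no entry.

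The motifs were searched in the same way in all 35116 promoter windows of the table. CACNCCAC was found in 7 of the 33 windows (21.2%), against 4.87% of all windows. The longer TCACNCCAC, which contains it, was found in 1 window (3.03%), that of SREBF2 at 133 bases before the start, against 0.883% of all windows. ATTGG was found in 22 of the 33 windows (66.7%), against 32% of all, and the GC box GGGCGG in 30 (90.9%), against 42.6%. These are matches of letters and were not tested as binding sites.

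The libraries held 29632090 to 37597477 counts assigned to genes, and mitochondrially encoded genes took 18.9% to 27.9% of them, SMARCB1 DMSO replicate 1 having the most. SMARCB1 had 30474 and 29383 counts in SMARCB1 Dox, 10 and 21 in SMARCB1 DMSO and 0 in each GFP library, which matched the labels of the SMARCB1 line; the Dox labels of the GFP line were not checked. Of the markers of other cells, CD3E and KDR had 0 counts in all 8 libraries and PTPRC, PECAM1 and EPCAM at most 2, 3 and 7 counts in any. CD68, CDH1, CD79A, VWF and CDH5 were higher, with up to 108, 31, 21, 19 and 16 counts in a library, CD68 at 1.06 to 3.08 CPM. KRT8 and KRT18, keratins of epithelial and rhabdoid cells, had 330 to 573 and 212 to 420 CPM.

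Levels are given as CPM, in which counts are divided by the TMM-scaled size of their library, and as CPM per kb of exon where genes are compared with each other. SCD, the desaturase that makes oleate, was highest, with group means from 112 to 248 CPM per kb. ACAT2, which makes acetoacetyl-CoA, MSMO1, a sterol methyl oxidase, FASN, the fatty acid synthase, and FDFT1, the squalene synthase, had group means of 16.7 to 31.1 CPM per kb. SREBF1, SREBF2 and SCAP were close to each other, with 12 to 15.6 CPM per kb. The mevalonate pathway genes MVK and MVD and the sterol reductase gene HSD17B7 were low, with 0.606 to 1.11 CPM per kb.

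**Figure D1:**
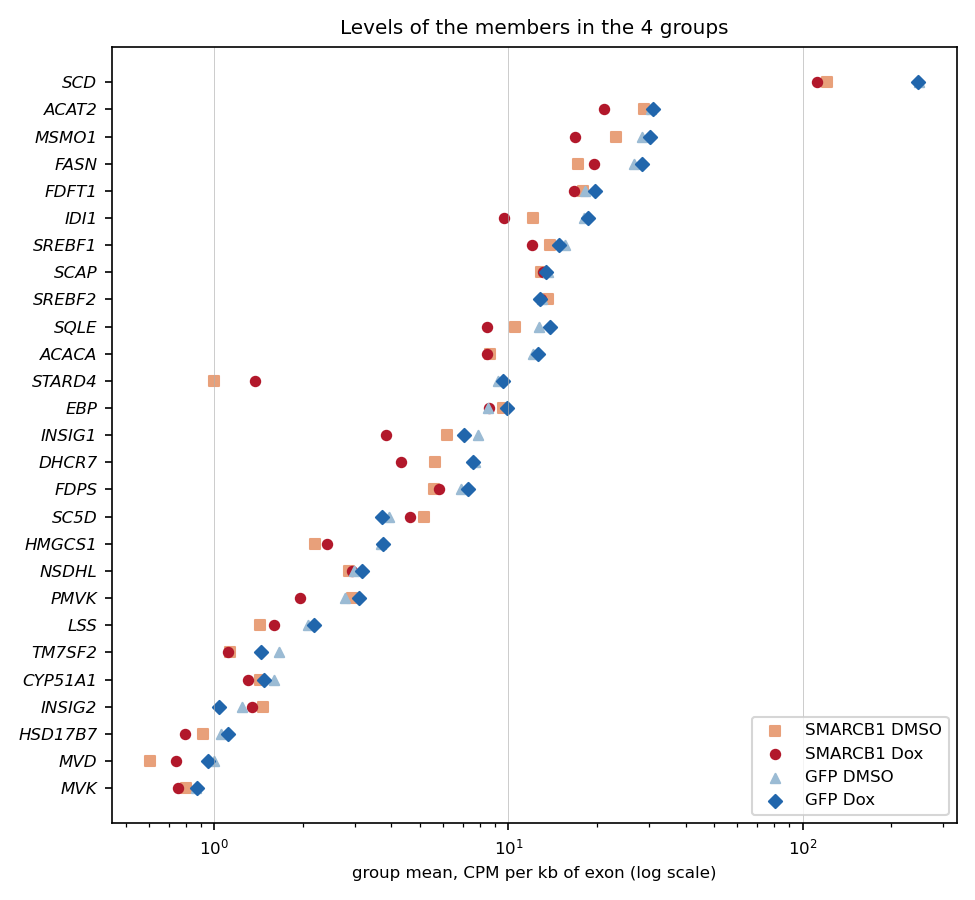
Group mean levels of 27 genes in CPM per kb of exon (log axis), with 1 symbol per group of 2 libraries; MYLIP, ABCA1 and ABCG1, at most 0.174 CPM per kb in any library, are left out. SCD is highest in all groups and STARD4 shows the widest gap between the lines, 0.998 and 1.38 against 9.21 and 9.58 CPM per kb.

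The efflux genes were at the limit of detection in all groups. ABCA1 had 0 to 4 counts per library and ABCG1 0 to 2. A count of 0 in a library allows up to 3 counts, 0.0798 to 0.101 CPM, from counting error alone. ABCA1 had 3 pooled counts in SMARCB1 Dox and 3 in SMARCB1 DMSO, and their ratio was 0.881 (95% exact interval for counting error, 0.118 to 6.57). A difference in these genes was not detectable at this depth.

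SMARCB1 Dox was first set against SMARCB1 DMSO, to see what followed re-expression of SMARCB1. The sterol sensor partner INSIG1 and 5 synthesis genes, ACAT2, IDI1, SQLE, MSMO1 and DHCR7, fell by 0.31 to 0.68 on the log2 scale, and MYLIP rose. In counts, 1 of the 28 genes tested (MYLIP, which passed the filter only through the group where it was high) was higher and 6 were lower at an adjusted p under 0.05 (edgeR quasi-likelihood test, Benjamini-Hochberg over 15931 genes). Among all genes tested, 8.33% were higher and 5.69% lower. Of the 18 synthesis genes, 5 were lower and 0 higher, 4 of which were not called when SMARCB1 DMSO replicate 1 was left out, as described for each gene. Their median log2 fold change was -0.15, against -0.05 for the other members and -0.00 for all genes. In bulk RNA, fewer cells expressing a gene and less RNA per cell cannot be told apart.

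Among the regulators, INSIG1, which retains SCAP in the endoplasmic reticulum and is itself an SREBP target, had 26.2 and 18.8 CPM in SMARCB1 DMSO and 15.4 and 12.6 CPM in SMARCB1 Dox. Both Dox libraries lay under both DMSO libraries. The log2 fold change was -0.68 (SE 0.138, adjusted p = 0.00162, edgeR). In the GFP line, INSIG1 had 30.6 and 27.1 CPM with DMSO and 27.2 and 24.2 CPM with Dox.

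The other regulators were not called in the main fit, and calls of SREBF1 and SREBF2 with a replicate block are given below. SREBF1 had 111 and 115 CPM in SMARCB1 DMSO and 94.9 and 102 CPM in SMARCB1 Dox, a log2 fold change of -0.20 with an adjusted p of 0.122 (edgeR). SREBF2 had 115 and 105 CPM against 106 and 102 CPM, with ranges that overlapped. Its log2 fold change of -0.08 had a 95% interval of -0.25 to 0.09. For SCAP the interval was -0.14 to 0.19, and for INSIG2, the low partner of INSIG1 with 4.32 to 6.83 CPM in the SMARCB1 line, it was -0.52 to 0.31.

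At the head of the pathway, ACAT2, the cytosolic thiolase that joins 2 molecules of acetyl-CoA, had 76.5 and 76.5 CPM in SMARCB1 DMSO and 52.1 and 59.3 CPM in SMARCB1 Dox. The replicates with DMSO were nearly equal and lay above both Dox libraries. The log2 fold change was -0.46 (SE 0.0827, adjusted p = 5.58e-04, edgeR). ACAT2 is a protein-coding gene on the plus strand of chromosome 6, positions 159762045 to 159779112 (GRCh38, GENCODE v44). Some 17.2% of the exon bases of ACAT2 are shared with TCP1 on the opposite strand, and the strand setting of the counting is not given in the sources used here.

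The next steps lead from HMGCS1, which makes HMG-CoA, to mevalonate and isopentenyl diphosphate. HMGCS1 had 14.3 and 14.9 CPM in SMARCB1 DMSO and 15.9 and 16.1 CPM in SMARCB1 Dox (log2 fold change 0.14, adjusted p = 0.459, edgeR). The mevalonate kinase gene MVK and the decarboxylase gene MVD were not called either, with intervals of -0.39 to 0.23 and -0.15 to 0.72. PMVK, the phosphomevalonate kinase, had 2.74 and 3.15 CPM against 2.19 and 1.72 CPM, a log2 fold change of -0.59 at an adjusted p of 0.12 (edgeR). Its Dox libraries were the lower ones, but at under 4 CPM the interval was wide, -1.11 to -0.08.

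IDI1, the isomerase that makes the allylic isoprenoid unit, had 54.3 and 49.9 CPM in SMARCB1 DMSO and 41.7 and 41.1 CPM in SMARCB1 Dox (log2 fold change -0.33, SE 0.0858, adjusted p = 0.0114, edgeR). FDPS, which builds farnesyl diphosphate, had 19.7 and 21.9 CPM against 22.8 and 20.5 CPM, with overlapping ranges. FDFT1, the squalene synthase, had 88.4 and 93.5 CPM against 83.6 and 86.4 CPM (log2 fold change -0.10, interval -0.26 to 0.06). Of these neighbours in the pathway, IDI1 alone passed the test.

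SQLE, the squalene epoxidase and a rate-limiting enzyme, had 49.9 and 40.2 CPM in SMARCB1 DMSO and 35.7 and 36.9 CPM in SMARCB1 Dox (log2 fold change -0.31, SE 0.0956, adjusted p = 0.0325, edgeR). MSMO1, which removes methyl groups from the sterol ring, had 79.8 and 52.9 CPM against 48.5 and 47.6 CPM (log2 fold change -0.46, SE 0.123, adjusted p = 0.0135), but DESeq2 did not call it (adjusted p = 0.148). MSMO1 lies on chromosome 4, positions 165327667 to 165343164, and its DMSO replicates differed from each other more than the second of them differed from the Dox libraries. DHCR7, the reductase of a last step to cholesterol, had 42.2 and 35.2 CPM against 32.2 and 27 CPM (log2 fold change -0.39, SE 0.105, adjusted p = 0.0155).

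**Figure D2:**
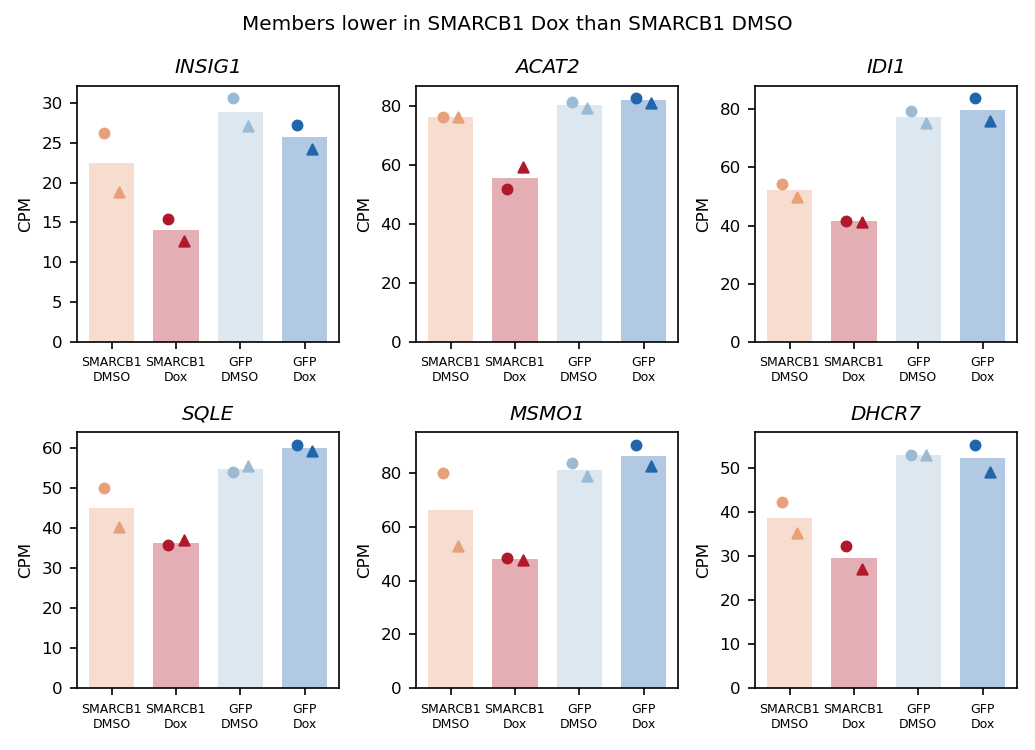
CPM in each of the 8 libraries for the 6 genes lower in SMARCB1 Dox than in SMARCB1 DMSO; circles are replicate 1, triangles replicate 2, and bars the group means. Both SMARCB1 Dox libraries lie under both SMARCB1 DMSO libraries for each gene, and the DMSO replicates of MSMO1 spread from 52.9 to 79.8 CPM.

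Replicate 1 of SMARCB1 DMSO was the higher of the pair for INSIG1, IDI1, SQLE, MSMO1 and DHCR7. Without it, the log2 fold changes were -0.42 (adjusted p = 0.0612) for INSIG1, -0.27 (0.109) for IDI1, -0.15 (0.455) for SQLE, -0.14 (0.481) for MSMO1 and -0.25 (0.217) for DHCR7, and none of these was called by edgeR. ACAT2 was still called. This library also had the highest mitochondrial share, 27.9%; with mitochondrially encoded genes left out before scaling, 6 genes were lower and 1 higher, as in the full data. Scaled to library totals, 3 genes were lower and 2 higher, with a shift of the median of all genes to 0.0878 and of the share of higher genes among those called from 59.4% to 80%. IDI1 (-0.24, adjusted p = 0.0918, edgeR), SQLE (-0.21, 0.152) and DHCR7 (-0.29, 0.0571) were then not called. Fitted with only the groups compared, SQLE was not called either (-0.31, adjusted p = 0.0797, edgeR).

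The SMARCB1 Dox libraries mattered as well. Without replicate 1 of SMARCB1 Dox, IDI1 (adjusted p = 0.0561, edgeR), SQLE (0.167) and MSMO1 (0.0758) were not called. Without replicate 2, IDI1 (adjusted p = 0.0529), SQLE (0.073), MSMO1 (0.0667) and DHCR7 (-0.27, 0.17) were not called. ACAT2 alone among the 7 genes was called without any single SMARCB1 library.

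None of the remaining synthesis genes was called in the SMARCB1 line. LSS, which closes the sterol rings, had a log2 fold change of 0.16 (interval -0.11 to 0.44), and CYP51A1, the lanosterol demethylase, -0.14 (-0.49 to 0.20). For TM7SF2, NSDHL and HSD17B7, which act on the sterol ring after demethylation, the values were -0.01, 0.03 and -0.20. The isomerase gene EBP (-0.16, interval -0.40 to 0.08) and the desaturase gene SC5D (-0.15, interval -0.35 to 0.04) were not called. CYP51A1 and EBP share 68.2% and 36.4% of their exon bases with readthrough genes on the same strand, so their counts are uncertain. HMGCS1 shares 37.7% with an lncRNA on the opposite strand.

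In sterol transport, MYLIP had 2 and 1 counts in SMARCB1 DMSO and 19 and 15 counts in SMARCB1 Dox. Both Dox libraries were far above, yet at 0.534 and 0.429 CPM. The pooled counts of 34 and 3 gave a 9.98-fold ratio (95% exact interval for counting error, 3.14 to 50.8), and edgeR called the gene at an adjusted p of 0.00921. MYLIP passed the filter on low counts only through SMARCB1 Dox, the group in which it was high, so its call is no independent support; with no filter the adjusted p was 0.0224. It was not called when either SMARCB1 DMSO library (adjusted p = 0.0612 and 0.122) or SMARCB1 Dox replicate 1 (0.0977) was left out, and DESeq2 gave it no adjusted p.

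STARD4, a cytosolic carrier of cholesterol, had 8.16 and 3.18 CPM in SMARCB1 DMSO and 9.86 and 5.78 CPM in SMARCB1 Dox. The ranges overlapped, and the log2 fold change of 0.49 was not called (SE 0.256, adjusted p = 0.242, edgeR). Without SMARCB1 DMSO replicate 1 it was 1.30 (adjusted p = 3.30e-04), and without SMARCB1 Dox replicate 2 it was 0.82 (0.0477). Scaled to library totals it was 0.59 (adjusted p = 0.0498, edgeR). It was also called with no filter on low counts (0.49, 0.00662) and with a replicate block and GC correction (0.62, 0.0407).

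The fatty acid genes were not called in the SMARCB1 line. FASN had 160 and 161 CPM with DMSO and 181 and 185 CPM with Dox (log2 fold change 0.19, adjusted p = 0.302, edgeR). SCD had 688 and 585 CPM against 572 and 602 CPM, with overlapping ranges. For ACACA, the carboxylase that makes malonyl-CoA, the interval of the log2 fold change was -0.21 to 0.15.

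Summed over the 18 synthesis genes, the level was 542 and 492 CPM in SMARCB1 DMSO and 434 and 443 CPM in SMARCB1 Dox. The sums in the GFP line were 598 and 598 CPM with DMSO and 639 and 603 CPM with Dox. The Dox libraries were thus the lowest in the SMARCB1 line and above the DMSO libraries in the GFP line. The sums are weighted toward the abundant genes, among them FDFT1, ACAT2, MSMO1 and IDI1.

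Dox itself was examined in the GFP line. None of the 28 genes was called by edgeR in GFP Dox against GFP DMSO, and 0 had an unadjusted p under 0.05. Of all genes tested, 0% were called, 1.67% reached an unadjusted p under 0.05, and DESeq2 called 0. Apart from MYLIP, the log2 fold changes ran from -0.26 for INSIG2 to 0.21 for EBP.

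The 6 genes that fell in the SMARCB1 line had intervals that included 0 here. These were -0.44 to 0.10 for INSIG1, -0.14 to 0.20 for ACAT2, -0.13 to 0.22 for IDI1, -0.06 to 0.32 for SQLE, -0.16 to 0.34 for MSMO1 and -0.23 to 0.19 for DHCR7. Those of INSIG1 and DHCR7 overlapped their intervals in the SMARCB1 line, -0.97 to -0.39 and -0.60 to -0.17, and the others did not. MYLIP had 1 and 2 counts in GFP DMSO and 0 in both GFP Dox libraries, both at or under the floor.

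**Figure D3:**
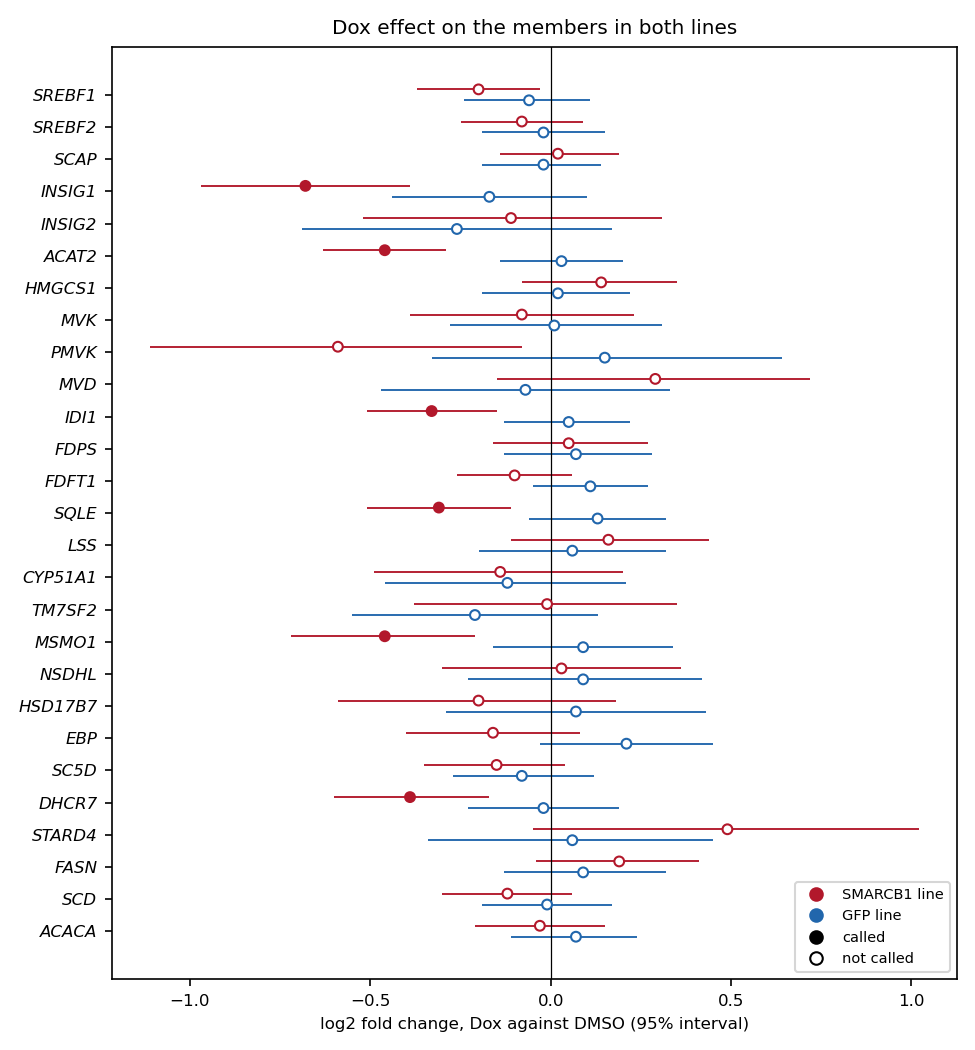
Log2 fold change of 27 genes with Dox, relative to DMSO, in the SMARCB1 line (red) and the GFP line (blue); bars are 95% intervals and filled points are called by edgeR at an adjusted p under 0.05. INSIG1, ACAT2, IDI1, SQLE, MSMO1 and DHCR7 are filled in the SMARCB1 line and no gene is filled in the GFP line; MYLIP, with few counts, is left out.

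Whether the Dox effects differed between the lines was tested directly. ACAT2 was the 1 gene of 28 called, with a difference of -0.48 (SE 0.116, adjusted p = 0.0158, edgeR), the SMARCB1 line minus the GFP line. In the GFP line, ACAT2 had 81.5 and 79.4 CPM with DMSO and 82.8 and 81.3 CPM with Dox. Over all genes, 3.07% had a higher and 1.64% a lower effect in the SMARCB1 line. The call of ACAT2 was lost without SMARCB1 Dox replicate 1 (-0.39, adjusted p = 0.0995), without GFP DMSO replicate 1 (0.053) or 2 (0.0921), without GFP Dox replicate 1 (0.0839) or 2 (0.0624) and with scaling to library totals (-0.41, 0.0682).

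For the other genes that fell in the SMARCB1 line, the difference of the effects was not called. It was -0.51 (adjusted p = 0.152, edgeR) for INSIG1, -0.38 (0.0807) for IDI1, -0.44 (0.0653) for SQLE, -0.55 (0.074) for MSMO1 and -0.36 (0.195) for DHCR7. Each interval lay under 0, and each of these differences was called when the replicate number was taken as a block, as given below. With no filter on low counts, the difference was called for SQLE (-0.43, adjusted p = 0.0477) and MSMO1 (-0.55, 0.00171). Without SMARCB1 DMSO replicate 2, the difference was called for INSIG1 (-0.74, adjusted p = 0.0126), IDI1 (-0.44, 0.0497), SQLE (-0.59, 0.00668) and MSMO1 (-0.82, 1.92e-04), and without SMARCB1 DMSO replicate 1 for STARD4 (1.24, 0.00453).

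The lines were then compared without Dox, as SMARCB1 DMSO against GFP DMSO. Here 13 of the 28 genes were lower in the SMARCB1 line and 1, SC5D, was higher (edgeR). Among all genes tested, 15.7% were lower and 16.3% higher. Of the 18 synthesis genes, 8 were lower and 1 higher, with a median log2 ratio of -0.24, against -0.27 for the other members and 0.01 for all genes. All 3 fatty acid genes and STARD4 were lower. SMARCB1 was not induced in either group, and each line is a separate derivative of G401, so the transgene and any other difference between the lines cannot be told apart.

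STARD4, on the minus strand of chromosome 5 at positions 111496033 to 111512590, showed the widest gap. It had 8.16 and 3.18 CPM in SMARCB1 DMSO and 52.6 and 52 CPM in GFP DMSO, a log2 ratio of -3.23 (SE 0.232, adjusted p = 2.11e-10, edgeR). With Dox it had 9.86 and 5.78 CPM in the SMARCB1 line and 54.7 and 54.2 CPM in the GFP line. No library of the SMARCB1 line came near those of the GFP line, and the replicates spread widely in the SMARCB1 line and little in the GFP line.

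The genes of fatty acid synthesis were lower too. SCD had 688 and 585 CPM in SMARCB1 DMSO and 1304 and 1294 CPM in GFP DMSO, a log2 ratio of -1.03 (SE 0.0877, adjusted p = 3.85e-09, edgeR). FASN had 160 and 161 CPM against 218 and 280 CPM (-0.63, adjusted p = 9.07e-05). ACACA had 111 and 114 CPM against 150 and 164 CPM (-0.48, adjusted p = 1.56e-04). The summed level of the 3 genes was 959 and 860 CPM in SMARCB1 DMSO and 1673 and 1738 CPM in GFP DMSO, without overlap.

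Among the synthesis genes, HMGCS1 (chromosome 5, minus strand, 43287470 to 43313512) differed most, with 14.3 and 14.9 CPM in SMARCB1 DMSO and 24.1 and 24.9 CPM in GFP DMSO (log2 ratio -0.75, SE 0.102, adjusted p = 5.15e-06, edgeR). IDI1 had 54.3 and 49.9 CPM against 79.4 and 75.3 CPM (-0.57, adjusted p = 1.43e-05). LSS had 9.98 and 10.7 CPM against 13.4 and 16.8 CPM (-0.55, adjusted p = 0.00222). In each of these genes both libraries of the SMARCB1 line lay under both of the GFP line.

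The same held for DHCR7, with 42.2 and 35.2 CPM against 52.9 and 52.9 CPM (log2 ratio -0.45, adjusted p = 0.0016, edgeR). MVD (-0.72, adjusted p = 0.00882), TM7SF2 (-0.56, 0.0138), FDPS (-0.30, 0.0246) and SQLE (-0.28, 0.0243) were also lower. SC5D, which adds a ring double bond late in the pathway, had 55.9 and 48 CPM against 39.2 and 39.9 CPM (0.39, SE 0.0928, adjusted p = 0.00235). Genes before and after squalene were thus among the lower ones, while ACAT2 (-0.07, interval -0.24 to 0.10) and FDFT1 (-0.03, interval -0.19 to 0.13) were not called.

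**Figure D4:**
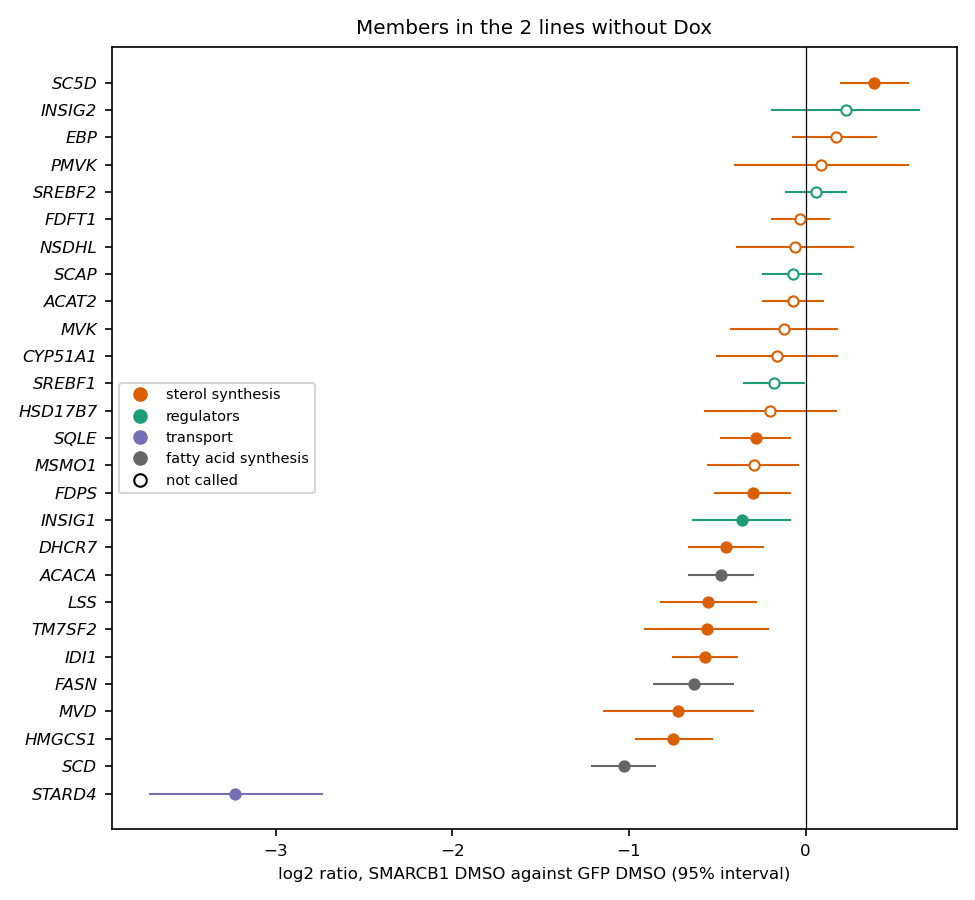
Log2 ratio of SMARCB1 DMSO to GFP DMSO for 27 genes, ordered by size and coloured by role; bars are 95% intervals and filled points are called by edgeR at an adjusted p under 0.05. STARD4 lies at -3.23, SCD at -1.03, and SC5D is the filled point above 0, at 0.39; MYLIP, with 3 counts in each group, is left out.

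Of the regulators, INSIG1 was lower in the SMARCB1 line (-0.36, SE 0.133, adjusted p = 0.0414, edgeR), but DESeq2 did not call it (-0.37, adjusted p = 0.0564). SREBF2 did not differ beyond its spread in the main fit, with 115 and 105 CPM against 107 and 103 CPM (log2 ratio 0.06, interval -0.11 to 0.23). With the replicate block and GC correction it was called higher (0.17, adjusted p = 0.0403, edgeR). SREBF1 had 111 and 115 CPM against 120 and 137 CPM (-0.18, adjusted p = 0.102). SCAP (-0.07) and INSIG2 (0.23) were not called.

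Some of these calls rested on single libraries. Without SMARCB1 DMSO replicate 1, FDPS (-0.23, adjusted p = 0.186, edgeR) and SC5D (0.28, 0.0579) were not called, and MSMO1 (-0.62, 3.75e-05) was. Without SMARCB1 DMSO replicate 2, INSIG1 (-0.14, adjusted p = 0.512), SQLE (-0.14, 0.358) and TM7SF2 (-0.50, 0.0835) were not called. Leaving out either GFP DMSO library lost FDPS (adjusted p = 0.112 and 0.0912), SQLE (0.0712 and 0.125) and TM7SF2 (0.0644 and 0.057), replicate 1 also lost INSIG1 (-0.27, 0.244), and replicate 2 also lost MVD (-0.67, 0.0613) and LSS (-0.38, 0.0892). STARD4, SCD, FASN, ACACA, HMGCS1, IDI1 and DHCR7 were called without any single library. Scaled to library totals, the median of all genes moved to -0.101 and the share of higher genes among those called from 50.9% to 32.1%, with 15 of the 28 genes lower and 1 higher.

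Some of the markers also differed between the lines, where 15.7% of all genes tested were lower and 16.3% higher. KRT8 (-0.63, adjusted p = 1.34e-05, edgeR) and KRT18 (-0.55, 1.74e-05) were lower in SMARCB1 DMSO than in GFP DMSO, and the 4 epithelial markers summed to 603 and 611 against 890 and 946 CPM. Of 6 proliferation genes, CCNB1 (-0.22) and MCM2 (-0.33) were lower and 4 were not called. The part of these in the line difference was not tested. With Dox in the SMARCB1 line, 0 of the 6 proliferation genes and 0 of 3 epithelial markers tested were called. Of 2 immune markers tested, CD68, a lysosomal protein, fell from 2.63 to 1.4 CPM (adjusted p = 0.0222); the 4 immune markers summed to 2.82 and 3.09 CPM against 1.26 and 2.11 CPM, with CD3E at 0, and their part was not tested.

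**Figure D5:**
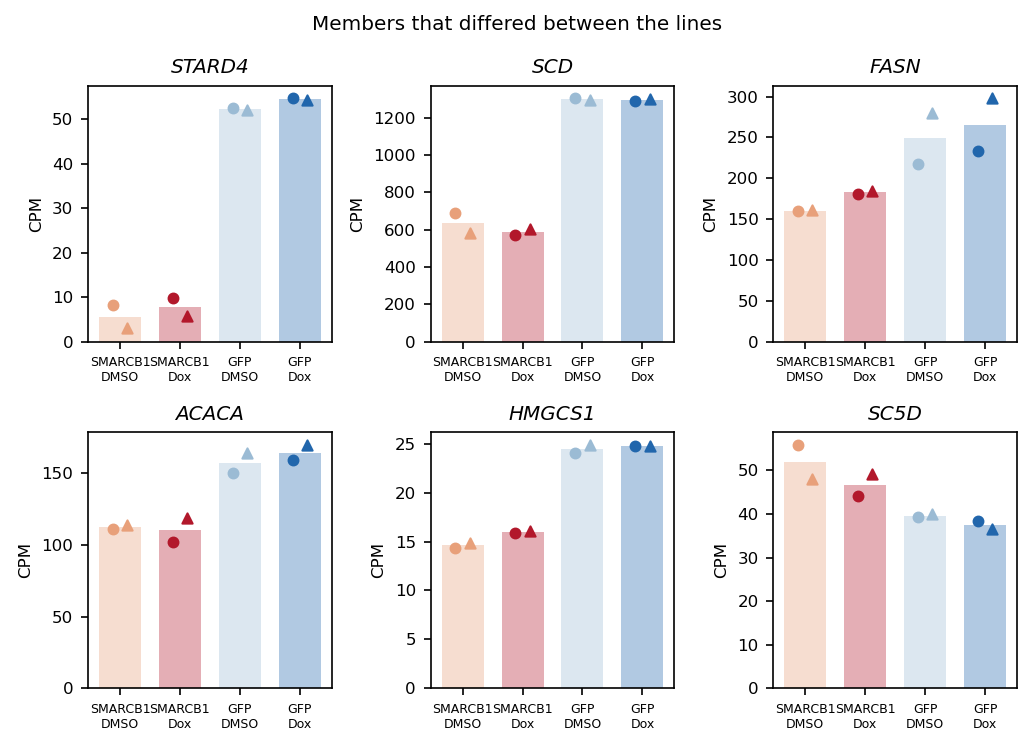
CPM in each of the 8 libraries for 6 genes that differed between the lines; circles are replicate 1, triangles replicate 2, and bars the group means. STARD4 has 3.18 to 9.86 CPM in the SMARCB1 line and 52 to 54.7 CPM in the GFP line, and SC5D is the gene with the higher level in the SMARCB1 line.

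The comparison of the lines and that of SMARCB1 Dox share the SMARCB1 DMSO libraries, so their values are set side by side and not related to each other. IDI1 had group means of 41.4 ± 0.367 CPM in SMARCB1 Dox, 52.1 ± 3.17 in SMARCB1 DMSO, 77.3 ± 2.91 in GFP DMSO and 79.8 ± 5.55 in GFP Dox (SD, n = 2). DHCR7 had 29.6 ± 3.65, 38.7 ± 4.98, 52.9 ± 0.0408 and 52.1 ± 4.44 CPM in the same order. Both genes were lowest in SMARCB1 Dox, while the GFP groups did not differ beyond their spread. HMGCS1 showed another order, with 16 ± 0.147 CPM in SMARCB1 Dox, 14.6 ± 0.393 in SMARCB1 DMSO, 24.5 ± 0.531 in GFP DMSO and 24.8 ± 0.0401 in GFP Dox.

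A wider set of 78 genes in 5 lists around the pathway was described by counts, of which 70 were tested. With Dox in the SMARCB1 line, 6 were higher and 10 lower, against 8.33% higher and 5.69% lower among all genes. Of 14 other isoprenoid and sterol genes, 3 were lower and 0 higher, with ERG28, which tethers sterol synthesis enzymes, at -0.40 (adjusted p = 0.00722, edgeR). Of 12 genes of SREBP processing, 3 were lower and 0 higher, among them RNF145, a ubiquitin ligase for SCAP, at -0.41 (0.00598) and ERLIN1, a membrane protein that binds cholesterol, at -0.30 (0.0155).

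The lists of sterol response and transport held calls in both directions, where 8.33% of all genes tested were higher and 5.69% lower. Of 9 LXR and oxysterol genes, 2 were higher and 1 lower. RXRA, the partner of LXR, rose by 0.36 (adjusted p = 0.0194, edgeR), and SMPDL3A rose from 0.164 to 0.734 CPM (0.0315). Outside SMARCB1 Dox, the group means of SMPDL3A were at most 0.164 CPM, so, as for MYLIP, its call is no independent support. SMPDL3A also had more reads with Dox in the GFP line, 0.161 against 0.0148 CPM (unadjusted p = 0.0174, adjusted p = 1, edgeR), and the difference of the effects was -1.08 (adjusted p = 0.793). Of 15 genes of uptake and trafficking, 4 were higher and 1 lower. VLDLR, a lipoprotein receptor that MYLIP is known to mark for degradation, rose from 2.43 to 9.34 CPM (log2 fold change 1.96, adjusted p = 1.85e-05), and GRAMD1B, a sterol transfer protein, rose from 0.0475 to 0.297 CPM (0.0434). LIPA, the lysosomal acid lipase, changed by -0.75 (8.40e-04). Of 20 other fatty acid genes, 2 were lower and 0 higher, ELOVL1 (-0.35) and HACD3 (-0.29), which elongate fatty acids. The difference of the effects between the lines was called for none of the genes named in this paragraph. Its adjusted p (edgeR) was 0.384 for RXRA, 0.0807 for VLDLR, 0.0908 for GRAMD1B, 0.0822 for LIPA, 0.21 for ELOVL1 and 0.289 for HACD3.

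In GFP Dox against GFP DMSO, 0 of the 70 genes were called by edgeR and 1, SMPDL3A, had an unadjusted p under 0.05. The Dox effects differed between the lines for 3 of the 70 genes, 1 higher and 2 lower in the SMARCB1 line. Over all genes tested, 3.07% were higher and 1.64% lower. Of the 3, ERG28 (-0.47, adjusted p = 0.0488, edgeR) was lower in the SMARCB1 line and the lipoprotein receptor gene LRP8 (0.64, 0.00453) was higher.

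Between the lines without Dox, 21 of the 70 genes were higher and 12 lower in the SMARCB1 line, against 16.3% higher and 15.7% lower among all genes tested. The isoprenoid and sterol list had 5 higher and 0 lower, with TMEM97 at 0.76 and LBR, a sterol reductase of the nuclear envelope, at 0.57. The SREBP processing list had 6 higher and 0 lower, with FBXW7, a ubiquitin ligase that removes nuclear SREBP, at 0.95 (adjusted p = 1.59e-06, edgeR) and ERLIN1 at 0.51. The LXR and oxysterol list had 1 higher and 4 lower, with the LXR gene NR1H3 at -0.80 and LPCAT3 at -0.57. The list of uptake and trafficking had 5 higher, with VLDLR at 3.34 and LIPA at 1.75, and 3 lower, with GRAMD1B at -3.63 and OSBP at -0.89. GRAMD1B was low in all groups, with 0.0475 CPM in SMARCB1 DMSO, 0.297 in SMARCB1 Dox, 0.638 in GFP DMSO and 0.466 in GFP Dox.

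The list of other fatty acid genes had 4 higher and 5 lower. FADS2, a desaturase of polyunsaturated fatty acids, was lower, at 35.1 against 89.8 CPM (log2 ratio -1.36, adjusted p = 1.01e-11, edgeR), and PNPLA3 was at -1.58 (7.30e-05). ACSL4, which activates arachidonate, was higher, at 20.3 against 2.33 CPM (3.13, adjusted p = 2.91e-13). MID1IP1, a cofactor of acetyl-CoA carboxylase, had 13.9 CPM in SMARCB1 DMSO and 0.0148 CPM, under the floor of a single library, in GFP DMSO.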

How the data were processed

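RNA of G401 cells was measured in 8 libraries, 2 for each of 4 groups set by the labels. The authors aligned reads with STAR to hg38 and counted them per gene with HTSeq over exons in intersection-strict mode and GENCODE v42. Versions and the strand option are not given in the sources used here, and the labels and the methods name different library kits. The deposited values are raw counts. The 5 summary entries that name no gene held 27% to 29.3% of reads and were left out, as were the Y copies of pseudoautosomal genes.

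Counts were tested with edgeR (4.0.16, R 4.3.3). Its expression filter kept 15931 genes, which were scaled by TMM and fitted with 1 mean per group over all libraries in a quasi-likelihood model, with Benjamini-Hochberg adjustment and a threshold of 0.05. DESeq2 (1.42.0), the tool of the study, was an alternative, as were other scalings and filters, a replicate block with and without a GC correction, and leaving out each library. The steps were tested on simulated data. Replicates of a group differed beyond counting noise, so none was counted as a duplicate. Gene symbols, positions and exon lengths came from GENCODE v44 on GRCh38, promoters from RefSeq. Counting intervals (95%, exact) and floors of 3 counts cover counting error only.

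The 30 genes and the further lists were chosen with earlier results of these data known. All 30 genes are reported, and from each further list at most the 2 genes with the largest change per direction among those called in a comparison were named. One gene of these lists is counted but not reported here by name. Replicate numbers came from the labels. Deviations of same-numbered libraries correlated at 0.0309 to 0.148 over the 6 pairs of groups, and the numbers were not taken to pair the samples. With 2 libraries a group, such small positive values cannot exclude a shared origin of equal numbers. Calls with a replicate block are therefore given below. Depth was 29632090 to 37597477 counts per library.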

Additional observations from a re-analysis of the deposited data

Results flagged for a closer look

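The Dox effect on ACAT2, the cytosolic acetoacetyl-CoA thiolase, differed between the lines, which was tested as an interaction in the edgeR fit. The difference, the SMARCB1 line minus the GFP line, was -0.48 on the log2 scale (SE 0.116, adjusted p = 0.0158). ACAT2 had 76.5 and 76.5 CPM in SMARCB1 DMSO, 52.1 and 59.3 CPM in SMARCB1 Dox, 81.5 and 79.4 CPM in GFP DMSO and 82.8 and 81.3 CPM in GFP Dox. Over all alternatives that left out 1 library or scaled to library totals, the difference kept its sign, and its call was lost without SMARCB1 Dox replicate 1 (-0.39), without GFP DMSO replicate 1 (-0.50) or 2 (-0.46), without GFP Dox replicate 1 (-0.47) or 2 (-0.50) and with library totals (-0.41). With 2 libraries a group, no library could be examined as an outlier within its group.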

How the results depend on the processing

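Among the 30 genes, none called in the full data changed direction under any alternative. Genes of the wider lists and the markers were not followed under the alternatives. Signs of values that were not called did turn in places: in SMARCB1 Dox against SMARCB1 DMSO, with library totals the median of the members other than synthesis genes went from -0.05 to 0.04 (also 0.04 without SMARCB1 DMSO replicate 1) and SREBF2 from -0.08 to 0.02, and with the replicate block and GC correction SCAP went from 0.02 to -0.14 and FDPS from 0.05 to -0.05. For SMARCB1 Dox against SMARCB1 DMSO, 7 genes were called in the full data, 5 with DESeq2, 5 with library totals and 2 to 6 without any 1 library. For the difference of the Dox effects, 1 gene was called, 0 with library totals, 3 without an expression filter and 0 to 5 without any 1 library. For the lines without Dox, 14 were called and 9 to 13 without any 1 library; in GFP Dox against GFP DMSO the count was 0 under every alternative. The share of higher genes among those called was 59.4% in SMARCB1 Dox against SMARCB1 DMSO, 55.7% with the replicate block and 47.9% with the block and a GC correction together.

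With the replicate number as a block, 8, 6, 16 and 0 genes were called in SMARCB1 Dox against SMARCB1 DMSO, the difference of the Dox effects, the lines and the GFP line, and with the block and a GC correction 11, 7, 15 and 0. In SMARCB1 Dox against SMARCB1 DMSO, the block added SREBF1 (-0.20, adjusted p = 0.0341, edgeR). The GC correction besides gave SREBF1 (-0.39, 1.61e-04), SREBF2 (-0.21, 0.022), PMVK (-0.77, 0.0219) and STARD4 (0.62, 0.0407). Between the lines, the block added SREBF1 (-0.18, 0.0342) and MSMO1 (-0.31, 0.00619). With the GC correction, SREBF2 (0.17, 0.0403) and MSMO1 (-0.34, 0.00256) were added and TM7SF2 (-0.39, 0.0658) was lost. Under the block alone, the difference of the Dox effects was called for ACAT2 and also for INSIG1 (adjusted p = 0.016, edgeR), IDI1 (0.0152), SQLE (0.0151), MSMO1 (0.00546) and DHCR7 (0.0458), and the same genes were called with the GC correction, with SREBF1 (0.0263) besides. The labels give no shared origin for equal numbers, and the cause of these changes was not tested. The difference of the Dox effects could not be refitted with the groups compared alone, since it uses all 8 libraries. With 2 libraries a group and few counts for MYLIP, ABCA1 and ABCG1, depth and replicate number limit what can be told of these genes.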
